A study of Mus musculus with 12 samples.

Results

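The Prame-like family genes Pramel6, Pramel7, Pramef6, Pramef17 and Pramef25 were described across mouse embryonic stem (ES) cell lines of backgrounds 129 and B6J. They were chosen by name, with earlier results of these data known, and make up 5 of the 26742 genes in the count table. Of them 4, all but Pramef6, held enough counts to be tested among 16627 genes. The cells were male and were kept in serum with leukaemia inhibitory factor (LIF), and RNA was taken after 5 days of daily treatment with DMSO, the solvent, or with PD 0325901 at 1 µM, which inhibits the kinase MEK. MEK activates ERK. Crossing background with treatment gave 4 groups, with 3 libraries of polyadenylated RNA in each, 12 in all. No clone is named, so background and cell line cannot be told apart. Separate cultures are not stated for the replicates either, and the p-values therefore cover a spread that may be technical only.

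Prame family proteins are built of leucine-rich repeats, and several of them serve as substrate receptors of ubiquitin ligases assembled on the scaffold CUL2. In mouse the family is expanded into large gene clusters that are mostly active in germ cells, oocytes and early embryos. PRAMEL7 is a protein of the inner cell mass and of naive ES cells that directs UHRF1, the factor that brings the maintenance methyltransferase DNMT1 to replicating DNA, to degradation, and PRAMEL6 and PRAMEL7 have been placed downstream of LIF and STAT3 in ES cell self-renewal.

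The members lie at 2 loci (GRCm38, GENCODE M21; all protein coding). Pramel7 (ENSMUSG00000025839, chr2:87489087-87497093, minus strand) and Pramel6 (ENSMUSG00000025838, chr2:87506565-87510872, plus strand) start 9.47 kb apart and are transcribed away from each other. Pramef6 (ENSMUSG00000078512, chr4:143894237-143900380), Pramef25 (ENSMUSG00000078511, chr4:143948580-143951016) and Pramef17 (ENSMUSG00000078509, chr4:143991119-143994369) lie on the minus strand of chromosome 4 inside a cluster of family genes. RefSeq names these 3 genes Pramel11, Pramel16 and Pramel14.

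Pramel7 and Pramef17, on different chromosomes, have alike promoters as well as alike coding sequences. RefSeq gave a promoter window, from 250 bases before to 50 after the start site, for all 5 members (GRCm38.p6). The RefSeq start of Pramel7 lies inside the GENCODE gene given above. Its window (chr2:87492369-87492668), and all that is said of it here, therefore does not describe the bases before the GENCODE start. The windows of Pramel7 and Pramef17 matched in 234 of 311 aligned columns (75.2%), whereas the other pairs of members matched in 43.6 to 52.1%. Their coding sequences were 79.9% identical, against 55.8% for the neighbours Pramel6 and Pramel7. A part of this likeness in the responses of the 2 genes was not tested. The 250 bases before each RefSeq start site are shown (chr2:87492419-87492668 and chr4:143994370-143994619, both minus strand). Capitals mark bases that are identical in the alignment of the pair.
Pramel7: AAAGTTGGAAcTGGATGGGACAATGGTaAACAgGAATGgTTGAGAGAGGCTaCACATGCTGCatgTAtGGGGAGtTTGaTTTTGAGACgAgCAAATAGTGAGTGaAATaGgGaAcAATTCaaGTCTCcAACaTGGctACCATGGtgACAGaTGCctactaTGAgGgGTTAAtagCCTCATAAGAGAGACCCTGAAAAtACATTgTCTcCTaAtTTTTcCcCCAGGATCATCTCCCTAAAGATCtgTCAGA
Pramef17: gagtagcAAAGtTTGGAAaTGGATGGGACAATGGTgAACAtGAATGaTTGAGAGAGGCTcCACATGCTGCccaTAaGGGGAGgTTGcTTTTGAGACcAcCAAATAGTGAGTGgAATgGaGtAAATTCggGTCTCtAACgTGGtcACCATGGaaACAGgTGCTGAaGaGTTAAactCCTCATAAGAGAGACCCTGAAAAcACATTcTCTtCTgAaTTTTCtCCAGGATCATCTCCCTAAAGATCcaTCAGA

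These promoters held few CpG dinucleotides, the sites of DNA methylation. There were 3 in the window of Pramel6, 2 in that of Pramef17 and 1 each in those of Pramel7, Pramef6 and Pramef25, against a median of 7 over 32851 RefSeq promoters. The motif GGTCTCTAA, which is bound by PRDM14, a repressor of FGF signalling and of DNA methyltransferase genes in naive cells, began at base -122 of Pramef17 and was present in 0.256% of all promoters. In the Pramel7 window the aligned bases read AGTCTCCAA, which differs by G1A and T7C (the Pramef17 base first, positions counted from the 5′ end of the motif). Other motifs were searched on both strands as well. CAAGGTCA, bound by ESRRB, was found at base 28 after the start of Pramef6 (1.56% of promoters), and CCAAT at -146 and -81 in Pramel6 and at base 41 after the start of Pramef6 (37.4%). None of the 5 windows held TTCCNNGAA (STAT; 4.81% of promoters) or the wider form TTCNNNGAA that includes it (8.30%), ATGCAAAT (octamer; 1.74%), GGGTGTGG (3.56%) or GGGCGTGG (5.33%) for KLF factors, CACGTG (7.15%), TATAAA (13.6%) or CCGGAAGT (ETS; 3.89%). A match, or its absence, describes letters in these windows and nothing more.

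How much of each transcript is unique decides how surely its reads can be assigned. No 50-base window of the longest Pramel6 transcript, and 0.442% of those of Pramel7, occurred in a transcript of another annotated gene. For Pramef17 the share was 73.5%, all of it with Gm13128 (Pramel30 in RefSeq), whose coding sequence is 99.3% identical and whose promoter is 97.3% identical to that of Pramef17. For Pramef25 the share was 63.5%, with 7 other family genes, and for Pramef6 it was 35.2%. Reads of Pramef17, Pramef25 and Pramef6 are therefore uncertain between copies, since the treatment of reads with several positions is not given in the sources used here. The plot of shared windows sets the members beside the other tested family genes.

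**Figure D1:**
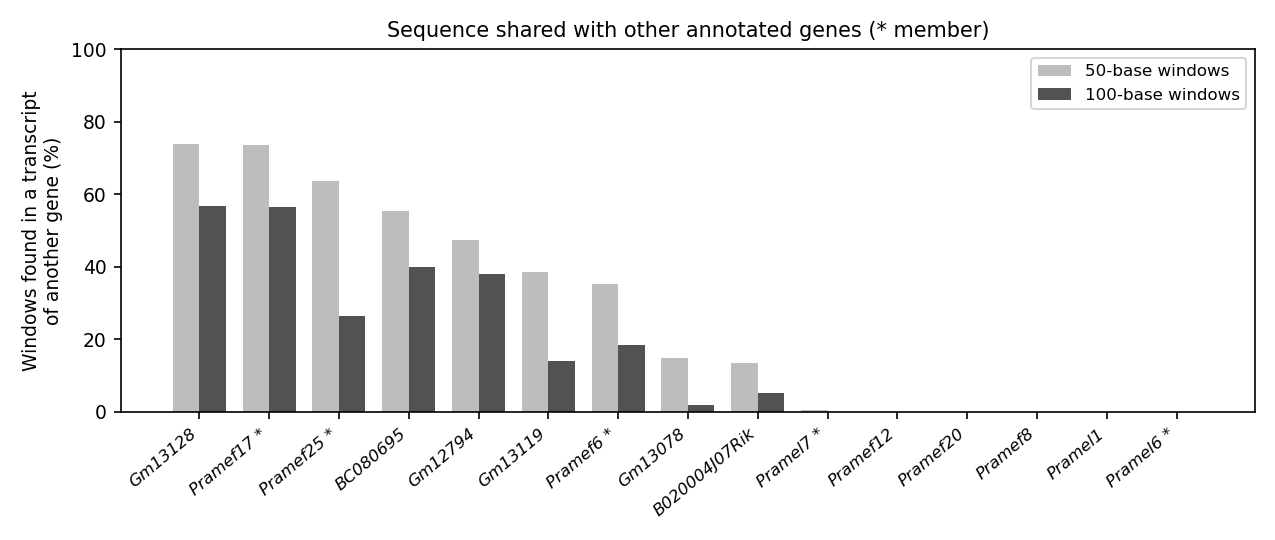
Share of exact 50-base (grey) and 100-base (black) windows of the longest transcript that also occur in a transcript of another annotated gene, in percent, for each tested family gene and Pramef6. Pramef17 stands at 73.5% and 56.3%, Pramef25 at 63.5% and 26.5%, and Pramel6 and Pramel7 at or near 0.

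Libraries held 62634533 to 96341637 counts, so a single count was worth 0.0105 to 0.0156 CPM (counts scaled to a common library total after TMM adjustment). In each group 1 library differed most from the other replicates over all genes: replicate 1 of both 129 groups and of untreated B6J, and replicate 3 of treated B6J. Without these 4 libraries the responses and background differences of Pramel6, Pramel7, Pramef17 and Pramef25 kept their direction and their side of the threshold; Pramef6 is described with its values. In every library the ES cell markers Pou5f1, Sox2 and Nanog were detected, at 660 CPM or more for Pou5f1. The MEK pathway targets responded as a group in both backgrounds. Of 15 tested ERK target genes 13 fell in 129 and 14 fell in B6J, beside 18.2% and 16.5% of all tested genes that fell. Egr1, an immediate early gene, was among them and fell by 5.00 and by 3.92 on the log2 scale.

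Pramel7, the receptor for UHRF1 described above, rose with the inhibitor in both backgrounds and was higher in 129 throughout. Its counts in replicates 1, 2 and 3 were 23, 49 and 50 in 129 with DMSO and 418, 614 and 835 with the inhibitor. In B6J they were 4, 6 and 18 with DMSO and 153, 143 and 135 with the inhibitor. Every inhibitor library of a background lay above every DMSO library of that background, and every 129 library lay above every B6J library under the same treatment. The mean level was 0.594 ± 0.246 CPM (SD, n = 3) with DMSO and 8.38 ± 2.30 CPM with the inhibitor in 129, and 0.122 ± 0.105 and 1.70 ± 0.261 CPM in B6J. On the log2 scale the response was 3.82 (SE 0.41, adjusted p = 6.13e-05) in 129 and 3.81 (SE 0.51, adjusted p = 0.000153) in B6J, about 14.1-fold in 129. The 2 responses differed by -0.01 (95% interval -1.45 to 1.42, adjusted p = 1.00), so a difference within that interval was not detectable at this spread. Without replicate 3 of B6J with DMSO, which held 18 of the group's 28 counts, the B6J response was 4.75.

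The neighbour Pramel6, which has been linked to LIF and STAT3 in the same way, followed the same pattern at a lower level. Its counts were 16, 26 and 20 in 129 with DMSO and 108, 173 and 292 with the inhibitor. B6J held 4, 4 and 6 counts with DMSO and 28, 18 and 20 with the inhibitor. Treated and untreated libraries did not overlap within either background, while the treated B6J libraries reached only the level of the untreated 129 libraries (0.261 ± 0.0808 against 0.299 ± 0.0732 CPM). The response was 3.09 (SE 0.35, adjusted p = 7.39e-05) in 129, to 2.55 ± 1.02 CPM, and 2.10 (SE 0.49, adjusted p = 0.00485) in B6J, where limma-voom did not call it (adjusted p = 0.0607). The B6J response was lower by 0.99 with an interval of -2.30 to 0.33 (adjusted p = 0.579), and was not shown to differ.

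Pramef17, a cluster gene whose own function is not stated here, was close to absent from B6J. Its counts were 27, 25 and 25 in 129 with DMSO and 383, 461 and 569 with the inhibitor. In B6J they were 0, 0 and 0 with DMSO and 0, 17 and 3 with the inhibitor. The groups of 129 were fully apart, whereas 1 treated B6J library was at 0 like the untreated ones. In 129 Pramef17 rose by 4.10 (SE 0.55, adjusted p = 0.000608), from 0.370 ± 0.0200 to 6.38 ± 0.946 CPM. In B6J the rise was called at an adjusted p of 0.0416 and was at least 6.15-fold against a floor of 3 counts over the untreated group; with the replicate number as a block the adjusted p was 0.0658, with limma-voom it was 0.120, and without replicate 2 of the treated group, which held 17 of the 20 counts, it was 0.0935. By group, Pramef17 and its near copy Gm13128 moved in the same direction. Their summed counts were 312 and 5455 in 129 and 0 and 158 in B6J, and Pramef17 held 24.7%, 25.9% and 12.7% of the 3 sums above 0. Tested on that sum, the B6J response was called at an adjusted p of 6.58e-06. By library they did not run together in treated B6J, where Gm13128 held 64, 32 and 42 counts beside 0, 17 and 3 of Pramef17.

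Pramef25, another member of the chromosome 4 cluster, responded more in B6J than in 129 by the test of the difference itself. Its counts were 9, 37 and 31 in 129 with DMSO and 9, 17 and 24 with the inhibitor, which overlap. B6J held 2, 4 and 4 counts with DMSO and 27, 55 and 43 with the inhibitor, which do not. The level in B6J rose from 0.0424 ± 0.0152 to 0.487 ± 0.166 CPM, a log2 response of 3.48 (SE 0.68, adjusted p = 0.00145), and in 129 it was 0.375 ± 0.219 and 0.224 ± 0.0879 CPM (-0.73, SE 0.53, adjusted p = 0.301). The B6J response exceeded that of 129 by 4.21 (SE 0.86, 95% interval 2.33 to 6.09, adjusted p = 0.0337). That call was lost with limma-voom (3.89, adjusted p = 0.0884), when counts were summed over Pramef25 and the 7 genes that share its sequence where they were in the table (3.44, adjusted p = 0.0659), and on leaving out any single library other than replicate 1 of 129 with DMSO (3.90 to 4.63), with the direction kept.

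Pramef6 stayed near the limit of detection. Its counts were 0, 11 and 16 in untreated and 3, 6 and 2 in treated 129 cells, and 4, 0 and 0 in untreated and 4, 9 and 0 in treated B6J cells. All groups overlapped, the highest mean was 0.135 ± 0.126 CPM, and the gene did not pass the filter on low counts. In a fit without that filter its response was -1.36 in 129 (adjusted p = 0.482) and 1.57 in B6J (adjusted p = 0.526). It passed the filter when the 4 least alike libraries were left out, which leaves 2 libraries a group and no count in B6J with DMSO. There it was called for the response in B6J (adjusted p = 0.0260), for the difference between the responses (adjusted p = 0.0324) and for the background difference in DMSO (adjusted p = 0.00523). In the other 11 settings in which it could be tested, the fit without the filter and fits without 1 library, Pramef6 was called in no comparison.

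**Figure D2:**
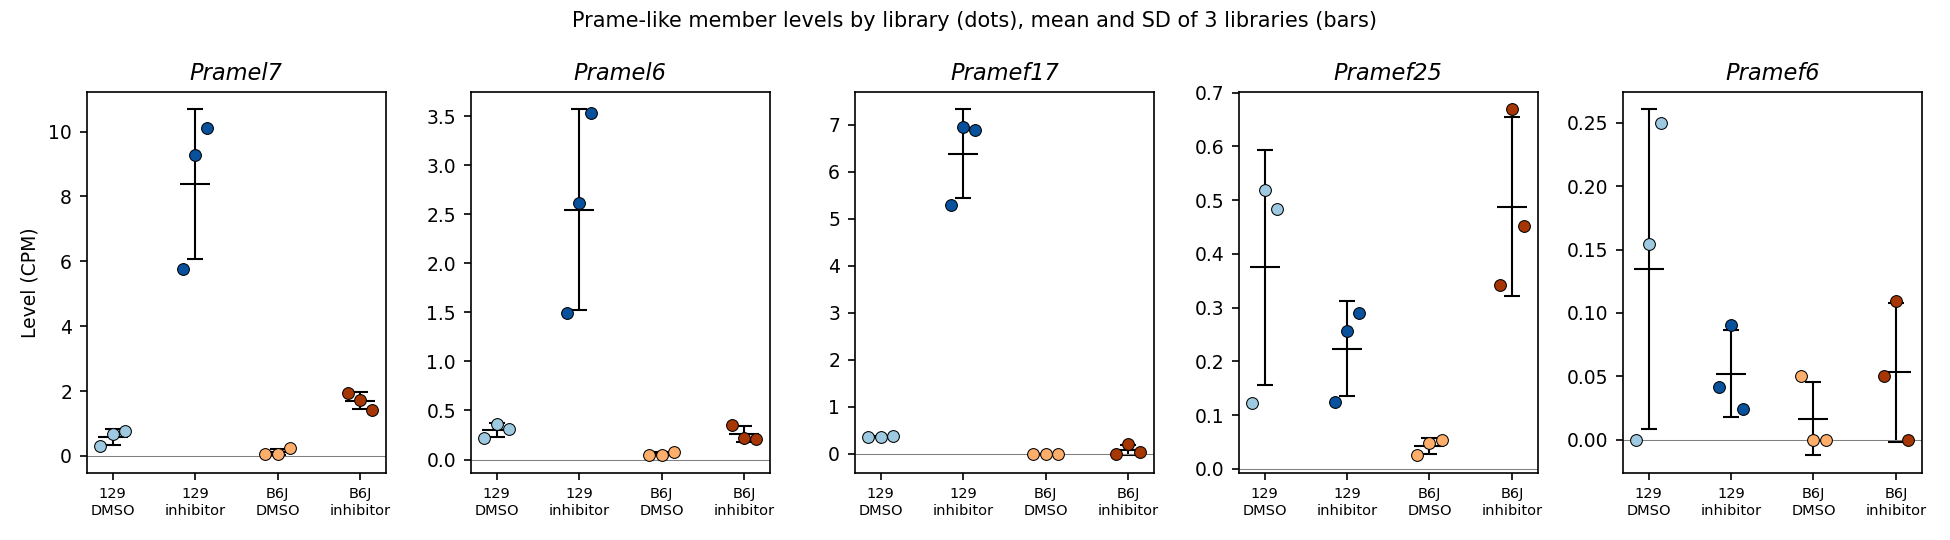
Level of each member in CPM (linear axis, own scale for each gene) by group; dots are libraries, and horizontal marks with bars are the mean and SD of 3 libraries. Pramel7, Pramel6 and Pramef17 are highest in 129 with the inhibitor (8.38, 2.55 and 6.38 CPM), and Pramef25 in B6J with the inhibitor (0.487 CPM).

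Among the 4 tested members, 3 rose in 129, where 35.7% of all tested genes changed and 17.4% rose, and 4 rose in B6J, where 31.1% changed and 14.6% rose. Of all tested genes 18.2% fell in 129 and 16.5% in B6J, and the responses called among the members were all rises. The response differed between backgrounds for 1 of 4, against 1.48% of all genes in either direction (0.71% higher and 0.77% lower in B6J). The median log2 response of the 4 was 3.45 in 129 and 3.64 in B6J, beside a median of -0.01 and 0.00 over all tested genes. The B6J median rests in part on Pramef17, whose fitted value depends on the prior count. Since the members were chosen with earlier results known, these shares and medians describe the members and are not a test of the family. The filter on low counts also admitted them only through groups where they were higher than in untreated B6J.

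**Figure D3:**
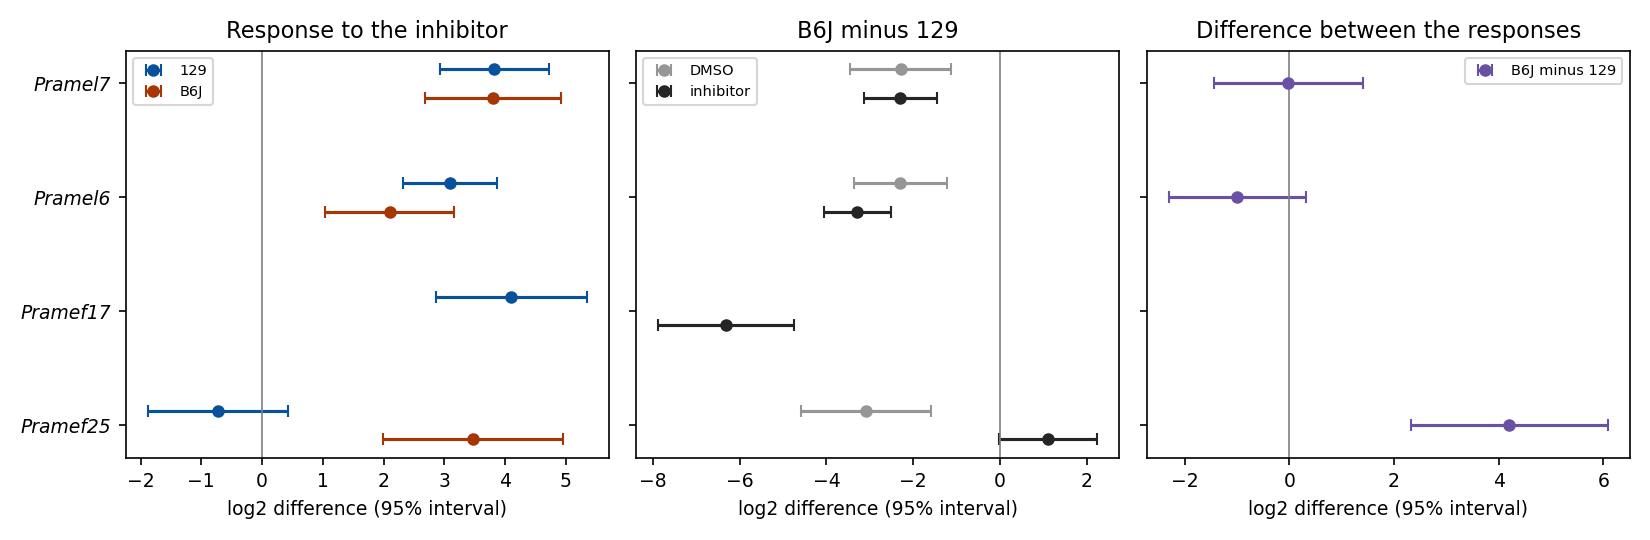
Log2 differences with 95% intervals for the tested members: the response in 129 (blue) and B6J (brown), B6J minus 129 in DMSO (grey) and in the inhibitor (black), and the difference between the responses (purple). Contrasts with no counts in a group are not drawn; the intervals of Pramel7 and Pramel6 for the difference between the responses include 0, and that of Pramef25 does not.

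Without the inhibitor the tested members were all lower in B6J than in 129. Called lower were 4 of 4, where 20.9% of all genes differed, 10.4% higher and 10.5% lower in B6J. The counts of these members in untreated B6J were too low to pass the filter alone. They were tested only through groups where they were higher, so this share describes the members and is not a test. In DMSO Pramel7 was lower in B6J by -2.29 (SE 0.53, adjusted p = 0.00831), or -3.23 without replicate 3 of B6J with DMSO; with only the 2 DMSO groups in the fit its adjusted p was 0.0566. Pramel6 was at -2.30 (SE 0.49, adjusted p = 0.00442; with limma-voom 0.0577), and Pramef25 at -3.10 (SE 0.69, adjusted p = 0.00511). Pramef17, with no count in B6J, was at least 29.2-fold higher in 129 (adjusted p = 0.00378).

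With the inhibitor 3 of 4 were lower in B6J, where 18.4% of all genes differed, 8.9% higher and 9.47% lower. Pramel7 kept the distance it had in DMSO, at -2.30 (SE 0.38, adjusted p = 0.0019), and Pramel6 was at -3.29 (SE 0.35, adjusted p = 8.55e-05), or 9.75-fold higher in 129. Pramef17 differed most, at -6.31 (SE 0.70, adjusted p = 0.000208) and 80.3-fold higher in 129; without replicate 2 of treated B6J it was at -8.42, and summed with Gm13128 at -5.30. Pramef25 was 0.224 CPM in 129 and 0.487 CPM in B6J, and 1.11 higher in B6J (SE 0.52, adjusted p = 0.170), which did not pass.

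Levels of different genes can be set side by side only per length. For Pramef17, Pramef25 and Pramef6 even that order is uncertain, since 73.5%, 63.5% and 35.2% of their 50-base windows are shared with other genes. As CPM per kilobase of annotated exon, treated 129 cells had Pramel7 at 3.93 ± 1.08 and Pramef17 at 3.64 ± 0.540, whose libraries overlapped, then Pramel6 at 1.22 ± 0.492, Pramef25 at 0.133 ± 0.0522 and Pramef6 at 0.0249 ± 0.0165, with no overlap between these neighbours in the order. Treated B6J cells had Pramel7 at 0.796 ± 0.122, Pramef25 at 0.289 ± 0.0988, Pramel6 at 0.1253 ± 0.0388, Pramef17 at 0.0453 ± 0.0635 and Pramef6 at 0.0256 ± 0.0262. There, Pramel7, Pramef25 and Pramel6 did not overlap one another, the libraries of Pramef17 overlapped those of Pramel6 and those of Pramef6, and Pramel6 and Pramef6 did not overlap. Untreated B6J cells had Pramel7 at 0.0571 ± 0.0494, Pramel6 at 0.0287 ± 0.0088, Pramef25 at 0.0252 ± 0.0090 and Pramef6 at 0.0080 ± 0.0139, with Pramef17 at 0 counts and overlap between neighbours. In untreated 129 cells the means ran from 0.0645 for Pramef6 to 0.278 for Pramel7 and the libraries of Pramel7, Pramef25 and Pramef17 overlapped. In bulk RNA, fewer cells with a transcript and less RNA per cell cannot be told apart.

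The rest of the Prame family moved in different ways (41 other genes by GENCODE or RefSeq name, of which 17 had no count and 10 were tested). In 129, 3 of the 10 rose, with a median of -0.17 over the 10, and in B6J 4 rose, with a median of 2.17; the shares of all genes are those given above. Gm13128 rose from 1.13 ± 0.142 to 18.2 ± 3.06 CPM in 129 (4.005, SE 0.25, adjusted p = 7.61e-06) and from 0 counts to 138 in B6J, at least 42.5-fold. Pramef12, known for its part in maintaining spermatogonial stem cells, had the highest mean CPM of the family in both 129 groups, and rose there from 43.9 ± 3.15 to 121 ± 7.09 CPM (1.46, SE 0.10, adjusted p = 1.97e-06). In B6J Pramef12 was 27.3 ± 4.18 and 25.7 ± 0.169 CPM (-0.08, adjusted p = 0.573), below Pramef8 at 39.0 ± 2.75 and 46.05 ± 1.55 CPM, and its response was lower than in 129 by -1.55 (SE 0.14, adjusted p = 0.00115).

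Another 3 family genes were called in B6J and not in 129: BC080695 and Gm13078 of the chromosome 4 cluster, and Gm12794, which lies outside it at chr4:101940407-101943183. BC080695 rose there by 2.84 (adjusted p = 0.00584), Gm13078 by 2.62 (adjusted p = 0.0303) and Gm12794 by 3.09 (adjusted p = 0.0219), and in 129 they were at -1.26, -0.64 and -1.11 without passing. The difference between the responses of these 3 did not pass either (adjusted p of 0.0537, 0.245 and 0.105), and among the 14 tested family genes it passed for Pramef25 and Pramef12. Pramef20 rose in 129 by 3.44 (adjusted p = 0.00727) from 3 counts to 38. In DMSO 4 of the 10 were lower in B6J and 2 higher, with Gm13119 at -3.36 (adjusted p = 0.0046).

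**Figure D4:**
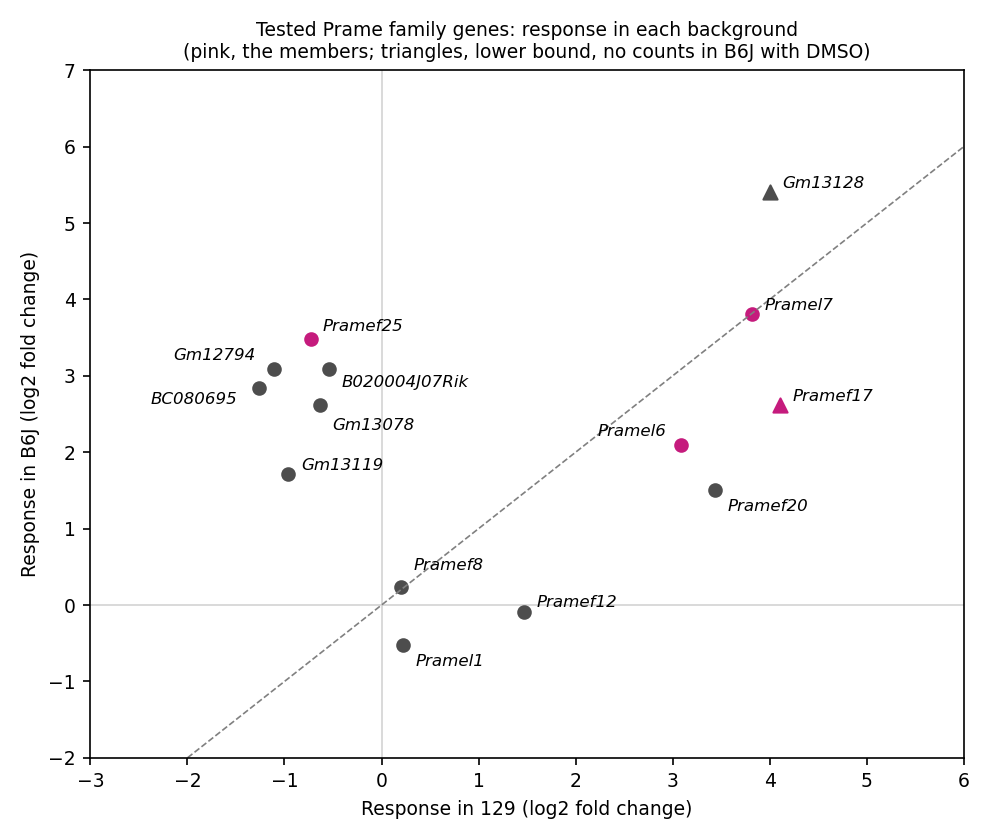
Response to the inhibitor in B6J against the response in 129 (log2 fold change) for the 14 tested family genes; pink, the members; triangles, lower bounds for genes with no count in B6J with DMSO; dashed line, equal responses. Pramel7 lies on the line, and Pramef25 lies above it at -0.73 in 129 and 3.48 in B6J.

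**Figure D5:**
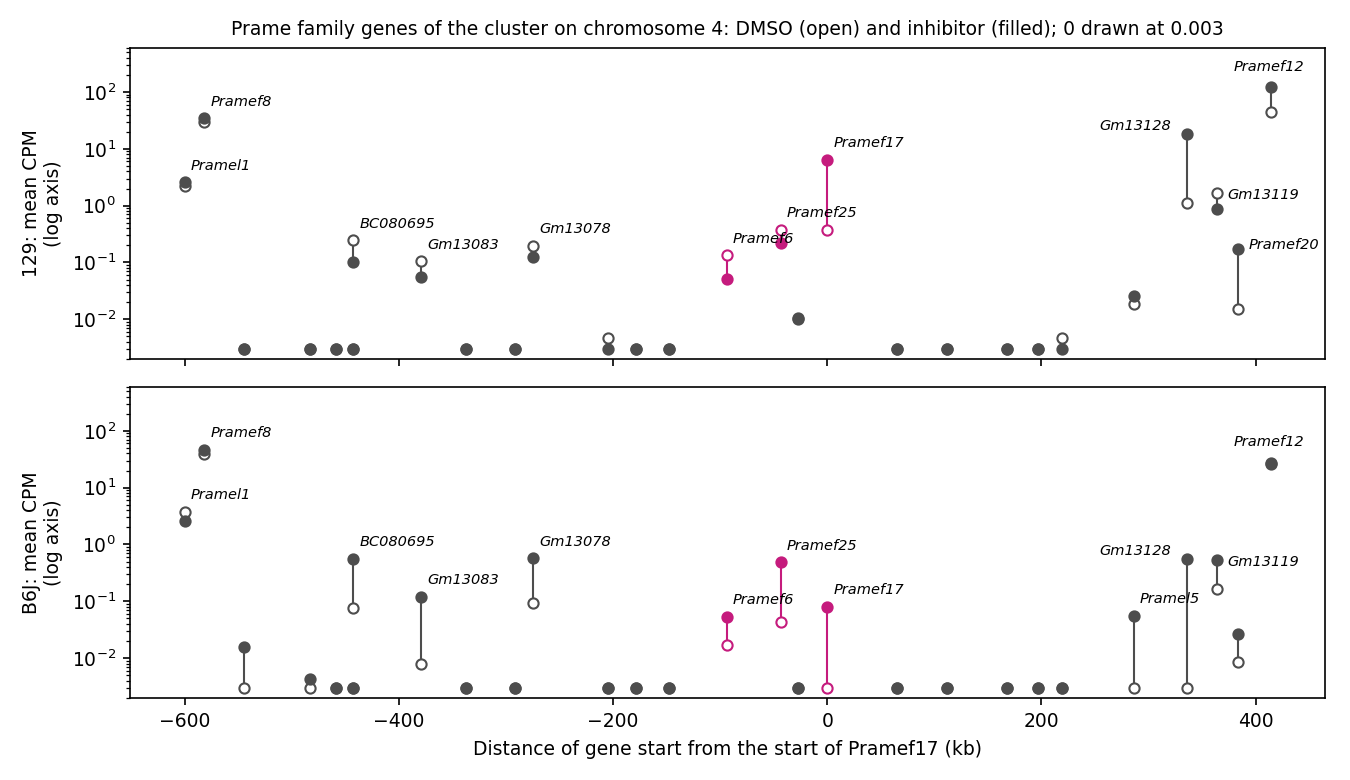
Mean CPM (log axis, 0 drawn at 0.003) of the family genes of the chromosome 4 cluster by distance of their start from that of Pramef17, in kb, for 129 (top) and B6J (bottom); open, DMSO; filled, inhibitor; pink, members. Pramef17 rises in 129 from 0.370 to 6.38 CPM while Pramef25, 43.4 kb away, stays between 0.224 and 0.375 CPM.

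Genes next to the members were mostly silent. Of 23 genes that start within 250 kb of Pramel6 or Pramel7, 19 had no count and 2 passed the filter in each case: the other member and Olfr153, an olfactory receptor gene that starts 25.2 kb from Pramel6. Olfr153, with 124 counts in all, rose by 2.698 in 129 (adjusted p = 0.00451) and by 2.76 in B6J (adjusted p = 0.0419). Around Pramef17, Pramef25 and Pramef6 the tested neighbours were other family genes.

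Likeness to a member was taken as the root mean square difference of centred log2 CPM over the 12 libraries. Genes with provisional symbols, Gm13128 among them, were left out, which left 15271 genes. From these the genes whose pattern lay closest to that of each member were taken. For Pramel6 they were Tuba3a, a testis alpha-tubulin (0.43), Timm8a2 (0.47), Olfr153 (0.47), Asgr2 (0.51) and Snx20 (0.51), beside a spread of 1.77 of Pramel6 itself. Pramel7, with a spread of 2.26, was closest to Bhmt, which encodes betaine-homocysteine methyltransferase (0.61), Pla2g2f (0.74), Samd7 (0.77) and Pramel6 (0.87). For Pramef17, Pkd2l1 (1.10), Gcm2 (1.20), Crxos (1.22), Dcstamp (1.22) and Pla2g4e (1.29) came first, beside a spread of 3.08. Pramef25 was closest to Usp17le (0.53), Usp17la (0.59), Trim30a (0.64), C1s2 (0.66) and Mroh5 (0.66), the first pair of which encode deubiquitinases. The libraries, their depth and the 4 groups are shared by all these values, and a filter on low counts admits low genes only where some group is high.

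The shared subunits of CUL2 ligases named below did not pass in either background, while other genes of these ligases changed in both directions. Of 18 genes of CUL2 ubiquitin ligases, 3 rose and 6 fell in 129 (median -0.04) and 1 rose and 4 fell in B6J (median -0.05), beside 35.7% of all tested genes changed in 129 and 31.1% in B6J, so that the B6J share was near the background. The scaffold Cul2 was at 0.09 (adjusted p = 0.545) in 129 and 0.13 (adjusted p = 0.430) in B6J, and the adaptors Elob and Eloc and the ring protein gene Rbx1 did not pass in either background. Klhdc2, a substrate receptor for protein C termini, fell by 0.77 and by 0.83 on the log2 scale. Among 10 genes of maintenance DNA methylation 1 rose and 2 fell in 129, and 3 rose and 2 fell in B6J; the 3 of 10 in 129 were no larger a share than the 35.7% of all genes, and the B6J share stands beside 31.1%. Uhrf1 RNA rose from 364 ± 11.2 to 533 ± 43.4 CPM in 129 (0.55, SE 0.08, adjusted p = 0.000252) and from 415 ± 36.9 to 633 ± 11.5 CPM in B6J (0.61, SE 0.08, adjusted p = 0.000124), and Dnmt1 was at 0.07 (adjusted p = 0.553) and 0.15 (adjusted p = 0.183). Protein levels and DNA methylation were not measured in these libraries.

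Genes of naive pluripotency rose beside Pramel6 and Pramel7. Of 20, 17 rose in 129 (median 0.71), and 14 rose and 2 fell in B6J (median 0.93), beside 17.4% and 14.6% of all tested genes that rose. Prdm14 rose from 11.8 ± 3.66 to 42.6 ± 4.99 CPM in 129 (1.85, adjusted p = 4.76e-05) and from 9.02 ± 1.42 to 32.3 ± 1.17 CPM in B6J (1.84, adjusted p = 4.92e-05). The Prdm14 level in DMSO was not shown to differ between backgrounds (-0.39, adjusted p = 0.200), and its part in the members' values was not tested. Other naive genes did differ there. Of the 20, 6 were lower in B6J, with Zfp42 at -3.02, and 5 were higher, with Dppa3 at 2.43, beside 10.5% and 10.4% of all genes. Of 16 LIF and STAT3 genes, 7 rose and 1 fell in 129, and 8 rose and 3 fell in B6J, beside the same 17.4% and 14.6% that rose and 18.2% and 16.5% that fell over all genes. Stat3 itself rose by 0.27 (adjusted p = 0.0497) and by 0.45 (adjusted p = 0.00464), and Tfcp2l1, a naive transcription factor that LIF induces, by 1.03 (adjusted p = 0.000223) and by 1.44 (adjusted p = 2.41e-05).

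The 2-cell-like genes, which mark occasional ES cells that resemble the 2-cell embryo, differed between the backgrounds beside Pramef25. Of 27 tested, 2 fell in 129 (median -1.12), a share below the 18.2% of all genes that fell there. In B6J 16 rose (median 2.69), where 14.6% of all genes rose. The response was higher in B6J for 3 by the test of the difference, Zscan4c, Zscan4d and Gm5662, beside 0.71% of all genes. In DMSO 21 were lower in B6J and 1 higher, beside 10.5% and 10.4% of all genes. The filter admits genes that are low in untreated B6J only through other groups, so this share is not a test. Zscan4d, a telomere-associated zinc finger gene of that state, was 6.68 ± 4.78 CPM in 129 with DMSO and 2.52 ± 1.23 CPM with the inhibitor (-1.41, adjusted p = 0.0928), and it rose in B6J from 0.181 ± 0.0458 to 1.81 ± 0.318 CPM (3.31, adjusted p = 0.00524). The number of cells in that state was not measured, and its part in the Pramef25 values was not tested.

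Markers of other cell types also moved with the treatment. Of 20 fibroblast markers, the genes of possible feeder cells, 12 rose in 129 and 9 in B6J, beside 17.4% and 14.6% of all tested genes that rose. Their summed level was 7486 to 14650 CPM in untreated and 14151 to 20647 CPM in treated 129 cells. In B6J it was 9957 to 11347 CPM in untreated and 14027 to 21310 CPM in treated cells, and no fibroblast marker was at 0 in any library. Their average on the log2 scale was also used as a covariate. In 129 it ran from 6.58 to 7.57 without and from 7.75 to 8.35 with the inhibitor. In B6J it ran from 7.04 to 7.33 without and from 7.70 to 8.31 with it. Treated and untreated libraries of a background therefore shared no covariate value. Responses fitted with it are extrapolated, and the treatment cannot be separated from the markers there. With this covariate the response of Pramel7 was 5.03 in 129 (adjusted p = 3.56e-05) and 4.75 in B6J (adjusted p = 3.08e-05). That of Pramel6 was 4.22 (adjusted p = 5.54e-05) and 3.001 (adjusted p = 0.000696). That of Pramef25 in 129 was 0.74 (adjusted p = 0.528), a change of sign without a call. With the same covariate the Pramef17 response in B6J was 5.75 and was no longer called (adjusted p = 0.0661). Of 12 primitive endoderm markers 6 fell in 129 and 1 in B6J, beside 18.2% and 16.5% of all tested genes that fell, and none was at 0. The summed level of these markers in 129 with DMSO was 9270 CPM in replicate 1 and 1137 and 1156 CPM in replicates 2 and 3. The latter lay below the 2244 to 3520 CPM of treated 129 cells. B6J had 1462 to 1594 CPM with DMSO and 2266 to 3271 CPM with the inhibitor. The sums rest mainly on a few high genes, among them Col4a1 and Sparc, and Sparc is also a fibroblast marker. The mean log2 CPM of the markers was 6.42, 3.06 and 3.04 in replicates 1, 2 and 3 of 129 with DMSO. With the inhibitor it was 3.66, 2.68 and 2.63. In B6J it was 2.59 to 2.82 with DMSO and 2.62 to 2.93 with the inhibitor. Without replicate 1 of 129 with DMSO, a setting chosen after seeing the data, 5 of the 12 rose and 2 fell in 129 (median 0.05, against -2.59 with it), 5 rose and 3 fell in B6J, and 19 of the 20 fibroblast markers rose in 129 and 14 in B6J. The sum of 8 trophoblast markers was 779 CPM in the same replicate 1 and 321 and 306 CPM in the other 129 libraries with DMSO, and 412 to 530 CPM in B6J with DMSO, against 108 to 120 CPM with the inhibitor; Elf5 was at 0 in 1 library. The part of the endoderm and trophoblast markers in the members' values was not tested. Per 1000 counts of the ES cell gene Pou5f1, Pramel7 had 0.478 to 0.934 counts in 129 with DMSO and 6.42 to 11.6 with the inhibitor, and 0.0589 to 0.340 and 1.69 to 2.39 in B6J, with no overlap of treated and untreated libraries within a background.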

How the data were processed

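The authors deposited whole-number read counts per gene for the 12 libraries, without normalization. Per the submitters' processing notes STAR 2.7.10, SAMtools, HTSeq 0.6.1p1 and DESeq were used, with builds mm10 and GRCm38 and no role or order; the sources used here do not give the annotation, the strand setting or the handling of multi-mapping reads. In each library 70.1 to 73.4% of the values from 1 to 20 were even numbers.

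Genes passing filterByExpr (minimum count 10, total 15) entered edgeR 4.0.16 (R 4.3.3): TMM scaling, 1 quasi-likelihood fit of 4 group means, Benjamini-Hochberg adjustment over 16627 genes, called under 0.05. Adjusted p values come from it except where DESeq2 or limma is named. Standard errors are Wald errors of the fit, and floors of 3 counts cover counting error only. The script was tested on simulated data. Alternatives used DESeq2 1.42.0, limma 3.58.1 (voom), other filters, covariates and library sets.

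The members and gene lists were chosen with earlier results of these data known. Named genes are the members; in each list and comparison up to 4 called genes with the largest change, plus Uhrf1, Dnmt1, Cul2, Elob, Eloc, Rbx1, Stat3, Nanog, Prdm14, Tfcp2l1, Dusp6, Egr1 and Zscan4d; the 5 genes most like each tested member (1 of those for Pramel7 is not reported here); and tested neighbours within 250 kb. Gm12794 and other family genes known by a RefSeq name, and Pou5f1, Sox2 and Elf5 as markers, were named after their values were seen.

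Replicate numbers come from the sample titles. Deviations from group means of same-numbered 129 libraries correlated (r of 0.442, 0.295 and 0.222 over genes). The highest r with a differently numbered 129 library was -0.274, 0.209 and 0.194. Replicate 1 differed most from the others in both 129 groups, which also shapes these values. A pairing of the 129 libraries by number was therefore not settled. In B6J the same-numbered r was -0.188, 0.088 and -0.170, and no pairing was seen.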

Additional observations from a re-analysis of the deposited data

Results flagged for a closer look

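The response to the inhibitor differed between the backgrounds, by the test of the difference itself, for 9 of the genes named or listed here. Pramef25 responded more in B6J by 4.21 (adjusted p = 0.0337), a call that rests on low counts as described above. Pramef12 responded less in B6J, by -1.55 (adjusted p = 0.00115). Among the 2-cell-like genes the B6J response was higher by 4.74 for Zscan4c (adjusted p = 0.0337), by 4.72 for Zscan4d (adjusted p = 0.0364) and by 4.90 for Gm5662 (adjusted p = 0.0478). Dppa3, which protects maternal DNA methylation in the early embryo, differed by -1.10 (adjusted p = 0.0187), and Uhrf2, a relative of Uhrf1, by 0.57 (adjusted p = 0.0450). Of the trophoblast markers, Eomes had a B6J response higher by 2.41 (adjusted p = 0.00115), and Gata3 one lower by -1.68 (adjusted p = 0.0174).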

How the results depend on the processing

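Of 588 values recomputed under 25 settings, 531 were rated the same. For a log2 difference this meant the same direction and side of the threshold. For a count of called members it meant an equal or nearly equal count. Depth limits the low members most: 3 counts over a group were the floor, and Pramef6 passed the filter on low counts in 12 of the settings and not in the fit reported. The count of called members for the difference between the responses was 0 of 4 with limma-voom. With the stricter filter (minimum count 50) it was 0 of 3, since Pramef25 did not pass that filter. It was 0 to 1 on leaving out single libraries, and 2 (Pramef25 and Pramef6) without the 4 least alike libraries. For the B6J response it was 2 of 4 with limma-voom. For the DMSO background difference it was 2 of 3 with only the groups compared in the fit, where Pramef25 was not tested. Both counts were 5 of 5 without the 4 least alike libraries, where Pramef6 was called. The Pramef17 difference between the responses, not called, was -1.52 with limma-voom, -2.01 with a prior count of 2, -0.59 to 2.07 on leaving out single libraries, and 4.56 (called, adjusted p = 0.0454) when summed with Gm13128. The Pramef17 response in B6J lost its call with limma-voom (2.55) and with the fibroblast covariate (5.75), and was 3.52 to 6.18 on leaving out single libraries; leaving out replicate 1 of 129 with DMSO, or replicate 1 or 3 of B6J with the inhibitor, kept its call. The Pramef25 difference was 3.89 with limma-voom, 3.44 with sharing genes summed and 3.90 to 4.63 on leaving out single libraries, and its 129 response 0.74 with the fibroblast covariate. Pramel6 was not called with limma-voom in DMSO (-2.22) or for the B6J response (2.002). Pramel7 in DMSO was -2.31 and not called with only the groups compared. The Pramel7 difference, near 0, changed sign with limma-voom (0.16), halved counts (0.0054) and single libraries left out (-0.39 to 0.93). The cause was not tested in these cases. Values of the fibroblast covariate did not overlap between treatments within a background, so responses fitted with it are extrapolated.

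With the replicate number as a block, the Pramef17 response in B6J was 5.55 and lost its call (adjusted p = 0.0658) and the Pramel7 difference was 0.088; the block changed no other call of a tested member. The 129 groups alone with the block, the sums over sharing genes, and the marker lists without 1 library, were chosen after seeing the data.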
